A study of Homo sapiens with 50 samples.

Results

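Gene expression in unirradiated H1299shRAD9 cells was compared with that in unirradiated parental H1299 cells. The comparison used 10 of the 50 arrays of the study, 5 for each cell line, chosen by the sample labels as controls (CTL). H1299 is a human non-small cell lung carcinoma line. H1299shRAD9 cells are H1299 cells infected with the retroviral vector pSUPER.retro.puro, which expresses a short hairpin RNA (shRNA) against RAD9 mRNA, and grown in puromycin to select stable clones. Per the methods of the study, 2 such stable transfectants were used interchangeably, and the sample labels do not say which of them gave which sample. No vector or selection was described for the parental cells, so reduced RAD9, the vector, the selection and the choice of clones cannot be told apart. All 10 samples were sham irradiated (0 Gy), and RNA was taken at 4 h. The remaining 40 arrays held cells hit by α particles and their bystanders, in dishes where bystanders did (DBP, BP) or did not (DBN, BN) form excess micronuclei, since the study asked how RAD9 status bears on the bystander response. The question of the comparison described here is which genes differ before any irradiation.

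RAD9 is part of the 9-1-1 clamp, a ring formed with RAD1 and HUS1 that is loaded onto damaged DNA by a complex containing RAD17. The clamp brings TOPBP1 to the site, which activates the kinase ATR, and ATR in turn activates CHEK1 to hold the cell cycle. RAD9 also binds DNA near some genes and changes their transcription, CDKN1A among them.

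One dye, Cy3, was used, with 1 sample on each Agilent array, and the array holds 34127 different probes, here called features. Levels are log2 intensities relative to the median feature of the same array, so a level of 0 is the array median and a difference of 1 is 2-fold. Differences are given as H1299shRAD9 minus H1299, with the standard error (SE) and the adjusted p of limma, and a gene was called differentially expressed where p was under 0.005 and the false discovery rate was also under 10%. Positions are those of the feature on the hg19 genome. A level on such an array is an average over the cells of a dish, and fewer cells of one kind cannot be told apart from less RNA per cell.

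The markers of a lung carcinoma line were present in both lines. The keratins KRT8 and KRT18, the neuropeptide NMB and NRAS were well above background on all 10 arrays. Of 37 markers of other cell types, 18 were well above background on no array, 9 on all 10 and 10 on some. The 9 were PTPRC, CD79A, CD14 and SPI1 of blood cells, CDH5 of endothelium, SFTPC and SCGB1A1 of lung epithelium, the neuroendocrine CHGB and the squamous SOX2. Those on some arrays were CD3E, DCN, VWF, NKX2-1, COL1A1, PDGFRA, PECAM1, KDR, CHGA and TP63. Those on none were HBB, CD34, COL1A2, COL3A1, LUM, PDGFRB, THY1, TEK, SFTPA1, SFTPB, SFTPD, FOXJ1, SYP, NCAM1, INSM1, KRT5, KRT14 and KRT6A. Of these markers, PTPRC (difference 1.2, adjusted p = 0.0121, the other of its features not called) and SCGB1A1 (0.68, adjusted p = 0.022) were called higher in H1299shRAD9, and CHGB (−0.79, adjusted p = 0.011) was called lower. The summed linear level of the 7 blood cell markers was 24.3 to 28.5 in H1299shRAD9 and 13.4 to 28.3 in H1299. The 5 neuroendocrine markers summed to 1.23 to 1.8 against 2.07 to 2.79, without overlap, and the 7 of lung epithelium to 3.64 to 5.23 against 2.61 to 3.98. The sums of the fibroblast (0.722 to 1.35 against 0.815 to 1.31), endothelial (2.78 to 3.61 against 2.49 to 3.58) and squamous markers (4.19 to 7.11 against 2.83 to 7.95) overlapped. The part of these cell types in the results was not tested.

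The share of features well above background was 58.6% to 65.3% in H1299shRAD9 and 62.0% to 69.8% in H1299 (exact permutation test, p = 0.0476, two-sided). An index of the signal of 5′ against 3′ features of 3434 genes averaged −1.51 in H1299shRAD9 and −1.41 in H1299 (exact permutation test, p = 0.0317). Both measures of the samples thus moved with cell line, and their part in the results was not tested beyond the covariate described in the closing section. The 10 arrays lay on 8 slides, none of which held controls of both lines, so slide and cell line cannot be told apart among them. The day of the scan was also separate, since the H1299shRAD9 controls were scanned on days 1 to 3 of 6 and the H1299 controls on days 4 and 5, and H1299shRAD9 controls 1 and 2 were alone on day 1. Over all 50 arrays, days 4 and 6 held both lines, with 1 irradiated or bystander H1299shRAD9 array on each, against 10 and 3 H1299 arrays.

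RAD9A, the gene targeted by the shRNA, has 1 feature, at chr11:67165480-67165539. Its level in H1299shRAD9 samples 1 to 5 was 3.85, 3.68, 3.70, 3.34 and 3.64, and in H1299 samples 1 to 5 it was 3.99, 4.00, 4.18, 3.82 and 4.05. The lines overlapped in 1 place, since H1299shRAD9 sample 1 was above H1299 sample 4. The mean was lower by 0.36 on the log2 scale, so that 77.7% of the parental mRNA level remained (exact permutation test, p = 0.0159, two-sided). The study chose its clones by Western blots, where RAD9 protein was reduced by more than this fall in mRNA. Protein is not measured by the array. RAD9A varied too little over the 50 arrays to pass the criterion on variation, and without that criterion its adjusted p was 0.0549. RAD9A was lower by 0.45 without H1299shRAD9 samples 1 and 2 and by 0.24 without samples 3 to 5. In a limma fit of all 50 arrays with scan day as a block, RAD9A was lower by 0.18 (adjusted p = 0.789).

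The H1299shRAD9 samples fell into 2 sets. In 288 of the features tested, replicates 1 and 2 lay more than 2-fold above all of replicates 3 to 5 (151 features) or more than 2-fold below all of them (137 features). The same features kept the same order, without overlap, in 283 cases each among the DBP, BP and DBN samples and 284 among the BN samples, where replicates 1 and 2 were again set against 3 to 5. In H1299 controls the same replicate numbers had that order for 58 of the 288. One slide held irradiated or bystander H1299shRAD9 samples of both sets, and on it 279 of the 288 kept the order. Across features, samples 1 and 2 correlated at 0.993 with each other, samples 3 to 5 at 0.990 to 0.991, and the sets at 0.970 to 0.978 with one another, where H1299shRAD9 and H1299 samples correlated at 0.959 to 0.976. The sets were found from the expression values, so no test was made between them. Which transfectant gave which sample is not in the labels, and the replicate numbers were not assigned to transfectants here.

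Of the 288 features, 71 stood more than 2-fold apart from all H1299 samples in replicates 1 and 2 alone, 68 in replicates 3 to 5 alone, 9 in both on the same side, 1 on opposite sides and 139 in neither. The 1 on opposite sides was STAT6, the transcription factor of interleukin-4 signaling (chr12:57489651-57489710). Its level in H1299shRAD9 samples 1 to 5 was −2.40, −2.01, 3.88, 3.73 and 3.58, and in H1299 it was 1.75, 1.76, 2.41, 1.85 and 1.92. The first 2 samples were below every parental sample and the last 3 above every one, and the mean difference of −0.58 had an adjusted p of 0.721. ADCY7, an adenylate cyclase that makes cyclic AMP, had the reverse pattern, with 1.65, 1.59, −2.82, −2.36 and −2.42 in H1299shRAD9 and −1.17, −2.07, −0.49, −0.86 and −1.16 in H1299 (difference 0.28, adjusted p = 0.819). Neither gene was called.

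Other genes of this kind, chosen after their values were seen, are given by their levels. CLEC11A, a secreted growth factor, was at 6.92, 6.89, 1.76, 1.51 and 1.51 in H1299shRAD9 and at 6.77 to 6.94 in H1299. PXDN, a peroxidase of the extracellular matrix, was at 6.19, 6.49, 1.57, 1.5 and 0.80 against 5.31 to 5.96, and MGMT, which removes alkyl groups from guanine in DNA, was at 2.79, 2.72, −0.92, −0.69 and −1.86 against 2.40 to 2.91. In these 3 genes samples 1 and 2 were near the parental line or slightly above it, and samples 3 to 5 were far below. RXRA, a nuclear receptor that pairs with many others, had the other order, at −3.75, −3.62, 1.92, 1.95 and 2.12 against 0.97 to 1.43, and DSP, the desmosome protein desmoplakin, was at −1.54, −1.43, 3.16, 3.49 and 3.23 against 3.80 to 4.36. None of these 5 genes was called, since the spread within H1299shRAD9 was large, while 67 of the 288 features were.

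**Figure D1:**
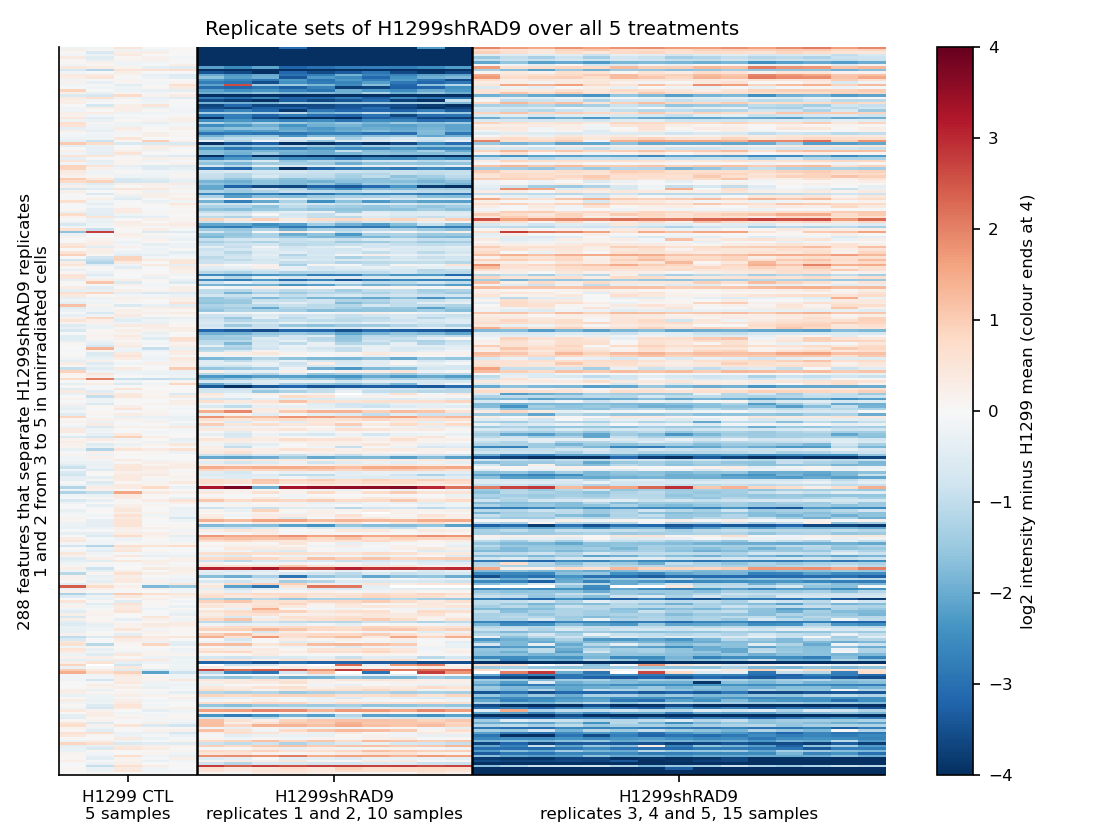
Heat map of the 288 features in which H1299shRAD9 control replicates 1 and 2 lay more than 2-fold from all of replicates 3 to 5; rows are features, columns are the 5 H1299 controls, the 10 H1299shRAD9 arrays of replicates 1 and 2 and the 15 of replicates 3 to 5, and colour is the log2 level relative to the mean of the H1299 controls. The features that differ in one set do so in nearly all arrays of that set, irradiated and bystander ones included (283 or 284 of 288 in each of these groups).

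The parental samples were not uniform either. H1299 replicates 1 and 2 lay more than 2-fold above all of replicates 3 to 5 in 95 features and more than 2-fold below in 30. Correlations within H1299 were 0.971 to 0.992. Named differences that moved by over 1.5 times without one of these sets are given without it. This was not looked at for NAPRT, GSTO2, ACTA2 and SLC2A3.

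Of 12148 features tested, 1865 (15.4%) were differentially expressed, with 914 (49.0%) higher and 951 lower in H1299shRAD9. With the processed values of the authors, which also hold other features (9453 tested), 36.6% of the differentially expressed features were higher. The smallest adjusted p was 4.5e-08. At an unadjusted p under 0.05 there were 4753. The values of the 5 and 5 samples did not overlap in 1449 of the called features, and in 1990 of all features tested (16.4%). Most differences were modest, with a median of 1.69-fold among the called features, but falls were larger than rises. Differences over 2-fold were seen in 131 features that rose and 290 that fell, and over 4-fold in 7 that rose and 46 that fell. With 1 feature for each of 7768 genes, 538 genes (6.93%) were higher and 651 (8.38%) lower, and the median difference over all genes was 0.09. The counts by list below are to be read beside these shares, and no set test was made. The count of differentially expressed features was 2200 without H1299shRAD9 replicates 1 and 2, 1053 without replicates 3 to 5 and 2255 without H1299 replicates 1 and 2.

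Fewer differences were called with the day of the scan in the model. In a limma fit of all 50 arrays with scan day as a block, 377 features were called between the controls (1825 at an unadjusted p under 0.05), 267 of them among the 1865, all in the same direction. In this fit the standard errors were larger by a median of 1.86 times, and the link between the lines rested on days 4 and 6. The sign was that of the controls for 93.9% of the 1865 features, where all features tested had 73.9%. Within day 4 alone the H1299shRAD9 array lay on the same side of the H1299 mean in 85.7% of the 1865 (69.5% of all tested), and within day 6 in 76.9% of the 1864 with a value (60.7%). FTCD, LIMCH1, PDE2A, NNMT and CCK were called with scan day as a block, at −3.12, −3.35, −3.13, −4.33 and −4.15. The sign turned for 4 named genes that were then not called, HKDC1 (−0.74), DOK3 (−0.11), CDKN1A (0.27) and SMURF1 (−0.01). Of 88 called genes named in the text (NAPRT, GSTO2, ACTA2 and SLC2A3 were not counted), 29 kept their call in this fit. Those that lost it with the same sign include CD86 (0.54, adjusted p = 0.786), NRG4 (0.56, adjusted p = 0.772) and RNVU1-18 (0.15, adjusted p = 0.954). They also include NUPR1 (−2.58, adjusted p = 0.372), STING1 (−1.68, adjusted p = 0.149) and CCND2 (−1.59, adjusted p = 0.165).

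**Figure D2:**
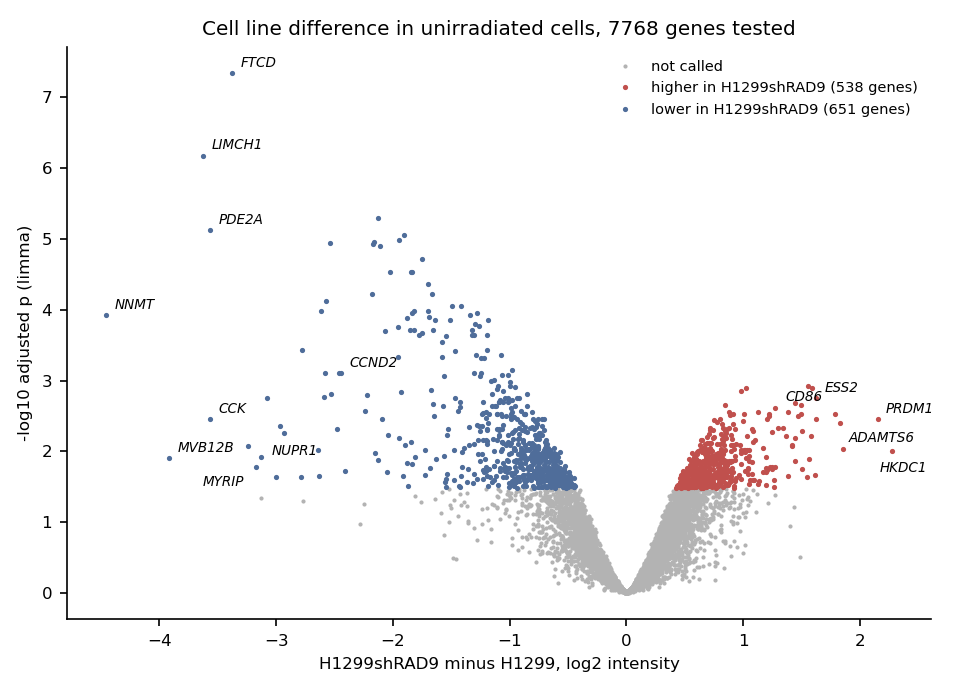
Difference between H1299shRAD9 and H1299 controls (log2, horizontal) against −log10 of the adjusted p of limma (vertical) for 7768 genes, with called genes coloured by direction. The falls reach further than the rises (NNMT −4.46, HKDC1 2.28), and FTCD has the smallest adjusted p.

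The smallest adjusted p was that of FTCD. FTCD, which takes a formimino group from histidine breakdown to tetrahydrofolate (chr21:47557154-47557213), was at −0.99, −1.2, −0.86, −1.17 and −1.26 in H1299shRAD9 and at 2.09, 2.37, 2.46, 2.12 and 2.34 in H1299. All 5 samples of each line were close together and the lines were far apart. FTCD fell by 3.38 ± 0.12 (SE), or 10.4-fold, and the difference was −3.38 both without H1299shRAD9 samples 1 and 2 and without 3 to 5. Another FTCD feature fell by 3.11 (adjusted p = 2.5e-06).

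LIMCH1, an actin-binding activator of nonmuscle myosin (chr4:41700725-41700784), was at −1.85, −1.77, −2.32, −2.08 and −1.91 in H1299shRAD9 and at 1.02, 1.83, 1.85, 1.48 and 2.04 in H1299. The feature was well above background on 1 of the 5 H1299shRAD9 arrays and on all 5 of H1299. It fell by 3.63 ± 0.19 (adjusted p = 6.6e-07). PDE2A, a phosphodiesterase that breaks down cyclic AMP and cyclic GMP (chr11:72287250-72287309), was at −1.43, −0.71, −0.46, −0.33 and −0.62 against 2.05, 3.14, 3.32, 2.71 and 3.04. Again no values overlapped, and the fall was 3.56 ± 0.25 (adjusted p = 7.5e-06). NNMT, which methylates nicotinamide (chr11:114183072-114183131), was at −0.25, −0.24, −2.17, −3.03 and −1.89 against 3.19, 3.50, 2.55, 2.71 and 2.75. Every H1299shRAD9 sample was below every parental one, samples 3 to 5 the furthest. NNMT fell by 4.46 ± 0.48 (adjusted p = 0.00012) and by 3.19 without samples 3 to 5. It was well above background on 3 of 5 H1299shRAD9 arrays, 1 of them among samples 3 to 5, so the size of the fall there is limited by background.

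The other large falls differed between the sets of H1299shRAD9 samples or of H1299 samples. MVB12B, of the sorting complex that brings cargo into multivesicular bodies, was at −2.85, −3.88, 1.16, 1.41 and 0.80 against 3.09 to 3.43, and ARHGEF4, a guanine nucleotide exchange factor, was at −3.52, −2.93, −0.03, 0.31 and −0.52 against 1.23 to 2.67. In both, samples 1 and 2 were the lowest. CCK, the hormone cholecystokinin, was at −0.96, 0.23, −3.11, −3.35 and −3.59 against 1.03 to 1.71, and MYRIP, a Rab effector that links vesicles to myosin and actin, was at 2.01, 2.05, −1.76, −1.83 and −2.13 against 2.60 to 3.05. In these samples 3 to 5 were the lowest, and MYRIP in samples 1 and 2 was only slightly below the parental line. The mean differences were −3.92 for MVB12B, −3.24 for ARHGEF4, −3.57 for CCK and −3.17 for MYRIP (adjusted p = 0.0123, 0.0085, 0.00349 and 0.0165). The lowest samples of these 4 genes were not well above background, so the mean differences depend on values near background and the lowest samples give only a bound. Against the lowest signal well above background on the same arrays, samples 1 and 2 were at least 31.5-fold lower than H1299 for MVB12B and at least 12.4-fold lower for ARHGEF4, and samples 3 to 5 were at least 9.89-fold lower for CCK and 25.1-fold for MYRIP. The samples that were well above background gave differences of −2.12 for MVB12B and −1.98 for ARHGEF4 (samples 3 to 5), and −1.78 for CCK and −0.81 for MYRIP (samples 1 and 2). With scan day as a block MVB12B was not called (adjusted p = 0.128).

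NUPR1, a stress-induced transcriptional regulator, split the parental line instead (chr16:28548821-28548880). It was at 0.67, −0.02, 0.55, 0.72 and −0.02 in H1299shRAD9 and at 5.63, 5.62, 2.12, 2.13 and 2.03 in H1299. All parental samples were above all H1299shRAD9 samples, the first 2 by far the most. The fall was 3.13 ± 0.73 (adjusted p = 0.012) and 1.71 without H1299 samples 1 and 2.

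Among the rises, HKDC1, a member of the hexokinase family (chr10:71026958-71027017), was the largest. Its level was 1.04, 1.32, −0.12, −0.59 and −1.34 in H1299shRAD9 and −3.38, −1.91, −1.88, −1.43 and −2.46 in H1299, where it was well above background on 3 of 5 arrays. The lines did not overlap, although the gap between the nearest samples was small. HKDC1 rose by 2.28 ± 0.50 (adjusted p = 0.00994), by 1.53 without samples 1 and 2 and by 3.39 without samples 3 to 5. Its difference was −0.74 with scan day as a block, where it was not called.

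PRDM1, a transcriptional repressor also known as BLIMP1 (chr6:106557662-106557721), was at 2.94, 2.94, 1.39, 1.14 and 1.57 against 0.07, −0.99, −0.14, 0.20 and 0.09. All H1299shRAD9 samples were above all parental samples, and the rise was 2.15 ± 0.38 (adjusted p = 0.00348). CD86, a costimulatory ligand of T cells (chr3:121839246-121839305), was at 1.68, 1.66, 3.12, 1.86 and 1.46 against 0.05, 0.28, −0.42, 0.67 and 0.27. H1299shRAD9 sample 3 was the highest, and CD86 rose by 1.79 ± 0.30 (adjusted p = 0.00295).

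The other large rises were in NRG4, a ligand of the receptor ERBB4 (1.86, adjusted p = 0.00917), ADAMTS6, an extracellular protease (1.83, adjusted p = 0.00401), ESS2, a nuclear protein linked to splicing (1.63, adjusted p = 0.00175), RNVU1-18, a variant of U1 small nuclear RNA (1.62, adjusted p = 0.0035), and the pseudogene CYP2G1P (1.59, adjusted p = 0.00125). RNVU1-18 and CYP2G1P have close relatives in the genome that the feature may also measure, and CYP2G1P had no value in 1 H1299 sample, which the fit left out. For DOK3, an adaptor that dampens immune receptor signaling, 1 feature rose by 1.84 and the brightest by 0.66 (adjusted p = 0.00546 and 0.032), the first by 2.49 without H1299shRAD9 samples 1 and 2 and by 0.86 without samples 3 to 5. For KIAA1958 the features disagreed, with 1 higher by 1.75 (adjusted p = 0.00372) and the brightest at a difference of −0.06 (adjusted p = 0.858).

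**Figure D3:**
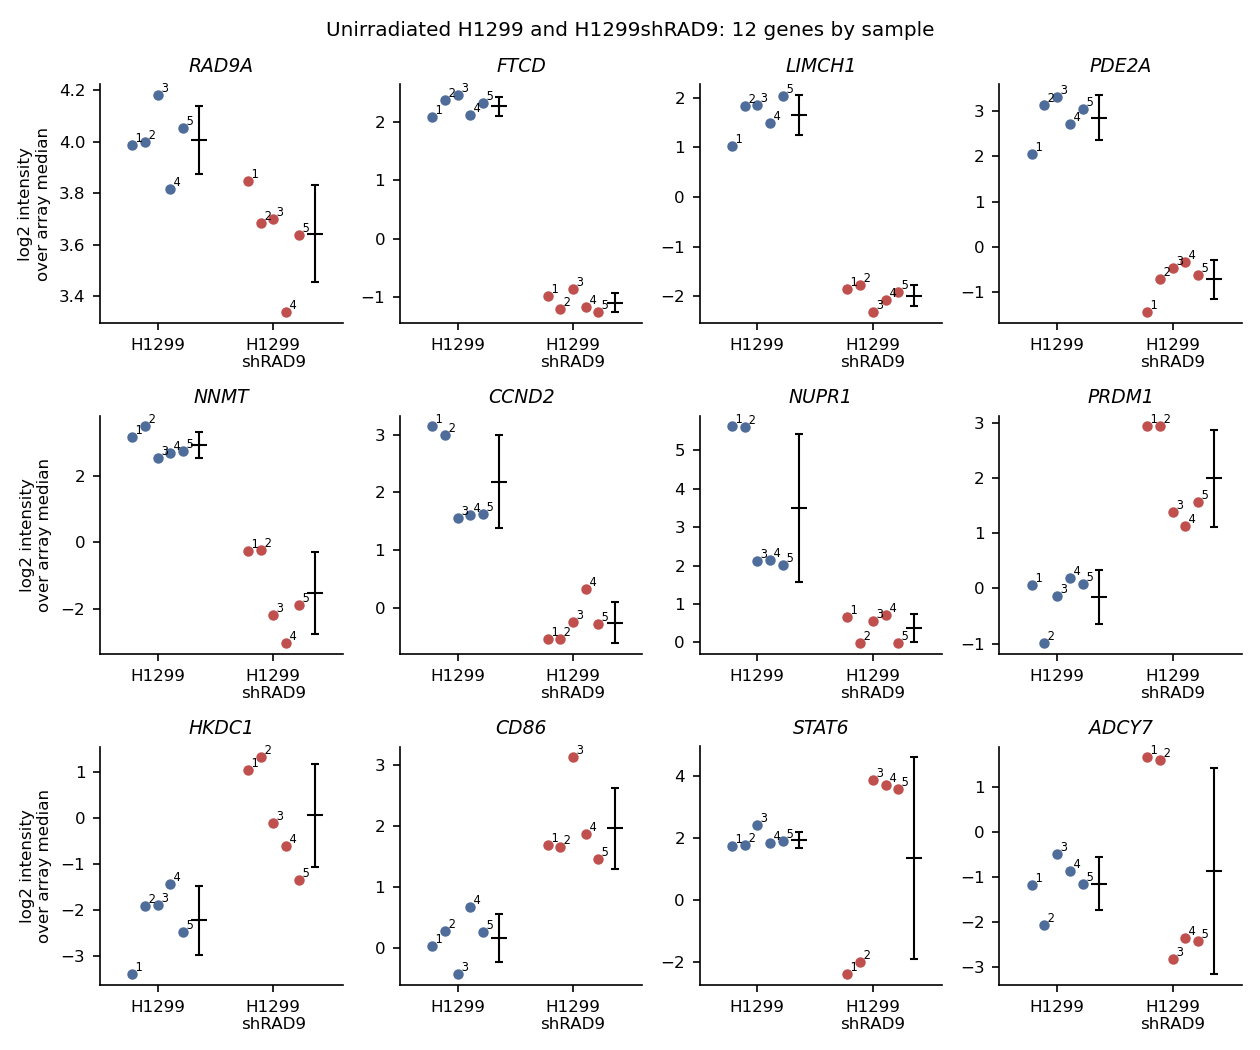
Log2 level relative to the array median (vertical) of 12 genes in each of the 5 H1299 and 5 H1299shRAD9 controls (points, numbered by replicate), with the mean and SD (n = 5) of each line. FTCD, LIMCH1 and PDE2A separate the lines in every sample, NNMT, PRDM1 and HKDC1 do so with the H1299shRAD9 replicates spread out, and STAT6 and ADCY7 have H1299shRAD9 replicates on both sides of the parental level.

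Of the other genes the study named for this comparison, ZNF480, a zinc finger gene, was lower (−1.30, adjusted p = 0.0208), and STEAP1, a metalloreductase of the cell surface, was higher (0.83, adjusted p = 0.0107). The chromatin factor ATF7IP (−0.30, adjusted p = 0.131 without the criterion on variation) and SEPTIN7 (−0.12, adjusted p = 0.614) were not called.

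Some genes were well above background in one line only, so that the other line gives a bound. There were 151 such features (0.442% of 34127), for 135 genes, with all 5 H1299 arrays and no H1299shRAD9 array well above background. For 56 of them the bound was over 2-fold, which was 13 of 122 with the weaker mark of signal above background and 92 of 726 when 4 of 5 arrays against at most 1 of 5 were asked for. Without H1299shRAD9 sample 5, whose share of features above background was the highest of its line, there were 355. The reverse was seen for 0 features (0%). The lowest level well above background was −2.374 to −1.478 on the H1299shRAD9 arrays and −3.147 to −2.115 on the H1299 arrays. A weak feature could thus pass more easily in H1299, and the part of this in the counts was not tested. The bounds set the mean of the H1299 arrays against the lowest signal well above background on the H1299shRAD9 arrays. For NECAB2 and SH3BP2 the bound was 0.83 and 0.79, which gives no difference. ENTREP1 (on the array as FAM189A2, chr9:72007284-72007343), a membrane protein of endosomes, was at least 13.8-fold higher in H1299. It was followed by the neurofilament subunit NEFL (at least 13-fold), RFPL4A (12.1-fold), the neurofilament subunit NEFM (9.14-fold) and RTL6, a gene derived from a retrotransposon (7.84-fold; on the array as LDOC1L). In ENTREP1 the parental levels were 2.25, 2.49, 1.62, 1.69 and 1.71, and the measured H1299shRAD9 levels were −3.59, −3.48, −3.34, −3.54 and −4.28. The lung lineage factor NKX2-1 was among them with a bound of 1.83-fold. In the irradiated and bystander groups 74 of the 151 features were well above background on at least 18 of 20 H1299 arrays and at most 2 of 20 H1299shRAD9 arrays.

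The interferon-stimulated genes that were called were lower in H1299shRAD9. Type I interferon binds the receptor IFNAR1 and IFNAR2, the kinases JAK1 and TYK2 then phosphorylate transcription factors, and these join IRF9 on a short DNA element, the interferon-stimulated response element (ISRE), to switch on antiviral genes. Of 23 interferon-stimulated genes tested, 10 were called lower and 0 higher (13 lower and 0 higher at an unadjusted p under 0.05), and their median difference was −0.58, where 8.38% of all genes were called lower and the median of all genes was 0.09. Without the criterion on variation, to which the difference between the lines itself contributes, 11 of 37 were called lower and 1 higher (median −0.27), and with normexp background correction the median was −0.33. With scan day as a block limma called 0 of the 23 (2 lower at an unadjusted p under 0.05; median −0.28).

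For genes of this group the element is shown, since it is the sequence the pathway acts on. The windows below are from RefSeq promoters (GRCh38.p14, windows of 300 bases around the start of each gene), written 5′ to 3′ on the strand of the gene, with capitals marking the letters GAAANNGAAA or, on the other strand, TTTCNNTTTC.
IFI44 (chr1:78649762-78649789, + strand): cacactgagTTTCAGTTTCctttctctg
IFIT1 (chr10:89392498-89392525, + strand): tagctttagTTTCACTTTCccctttcgg
IFITM1 (chr11:314025-314052, + strand): cacttctgaGAAACTGAAAcgacagggg
ISG20 (chr15:88638938-88638965, + strand): aacaaactaGAAACTGAAAcagggtcgg
DDX60 (chr4:168318822-168318849, − strand): tgctgaaggGAAACTGAAAcctaagtgc
GBP1 (chr1:89065317-89065344, − strand): acgaagtacTTTCAGTTTCatattactc
IFIT1, IFITM1 and DDX60 each hold 1 more match, which in IFIT1 overlaps the window shown. On either strand the motif was found in 29 of 44 promoters of the list (65.9%), against 996 of 27305 promoters in all (3.65%). It was in 6 of 9 promoters of the genes called lower (66.7%) and 7 of 11 of those tested and not called (63.6%).

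IFI44 was at −0.34, −0.45, −1.08, −0.49 and −0.76 in H1299shRAD9 and at 0.34, 0.35, 0.61, 0.65 and 0.33 in H1299. IFIT1, which binds viral RNA without a self cap, was at 2.07, 1.96, 2.04, 2.48 and 1.90 against 2.91, 3.19, 3.25, 3.02 and 2.87. In both genes all H1299shRAD9 samples were below all parental samples. The differences were −1.08 ± 0.15 (adjusted p = 0.00186) and −0.96 ± 0.13 (adjusted p = 0.00228). IFIT2 (−0.76), ISG20, an exonuclease (−0.76), UBE2L6, which conjugates ISG15 (−0.74), the helicase DDX60 (−0.66), SP110 (−0.66) and IFITM1, which blocks viral entry (−0.65), were also lower without overlap. GBP1, a GTPase acting against intracellular pathogens, was lower by 0.94 (adjusted p = 0.0324) with 1 overlap, and was well above background on 2 of 5 H1299shRAD9 arrays. ISG15 itself (6.27 against 6.33) and IFI35 (−0.45) did not vary enough to be tested, and had an adjusted p of 0.778 and 0.0302 without that criterion. The count of 10 was 6, 6 and 4 without H1299shRAD9 sample 3, 4 or 5 and 4 without H1299 sample 3. It was 9 without H1299shRAD9 replicates 1 and 2, 3 without replicates 3 to 5 and 6 without H1299 replicates 1 and 2, with medians of −0.66, −0.31 and −0.62, and 1 member of these interferon-stimulated genes was called higher in each of the 3.

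Of 9 genes counted for interferon signaling, 1 was higher and 1 was lower (median −0.30). The kinase TYK2 was lower by 0.55 (adjusted p = 0.0223) and the receptor chain IFNAR1 was higher by 0.56 (adjusted p = 0.0318). IFNAR2 (−0.06, adjusted p = 0.805) and IRF9 (−0.39, adjusted p = 0.0735) were not called.

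Among 6 tested sensors and adaptors of foreign RNA and DNA, 2 were lower and 0 higher (median −0.03). STING1, the adaptor of cytosolic DNA sensing (chr5:138855597-138855656), was at 4.79, 4.72, 2.88, 2.60 and 2.57 in H1299shRAD9 and at 5.06, 5.35, 5.18, 4.88 and 4.82 in H1299. Samples 1 and 2 were just below the parental line and samples 3 to 5 far below. STING1 was lower by 1.55 (adjusted p = 0.0248), by 2.38 without samples 1 and 2 and by 0.30 without samples 3 to 5, when it was no longer called (adjusted p = 0.32). TLR3, the endosomal receptor of double-stranded RNA, was lower by 0.92 (adjusted p = 0.0057) in both sets.

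Of 10 tested genes of MHC class I antigen presentation none was called in limma (median −0.10; 3 higher and 3 lower at an unadjusted p under 0.05). PSMB8, an interferon-induced proteasome subunit, had a difference of −0.55 (adjusted p = 0.053). B2M (8.05 against 8.31) did not vary enough to be tested. In the PARP family, enzymes that attach ADP-ribose to proteins, 2 of 10 were lower, against 8.38% of all genes, and 0 higher (median −0.27). These were PARP10 (−1.01, adjusted p = 0.00583) and PARP9, which is also an interferon-stimulated gene and in that list (−0.80, adjusted p = 0.0218). PARP1, which responds to DNA breaks, was not called (−0.39, adjusted p = 0.274).

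Of 21 genes counted for the 9-1-1 clamp and ATR checkpoint, RAD9A included, 8 were tested. Of these 8, 1 was higher and 0 lower (median 0.05), against 6.93% and 8.38% of all genes. The 1 was TIPIN, a fork protection protein that helps activate CHEK1, at 6.0, 6.19, 6.44, 6.45 and 6.31 in H1299shRAD9 and at 5.54, 5.25, 5.65, 5.50 and 5.83 in H1299. The lines did not overlap and the difference was 0.72 ± 0.13 (adjusted p = 0.00949). The clamp loader RAD17 (−0.17, adjusted p = 0.475) and CLSPN (−0.20, adjusted p = 0.529) were not called. RAD1, HUS1, TOPBP1, ATR and CHEK1 were not tested, RAD1, TOPBP1, ATR and CHEK1 for lack of variation and HUS1 for lack of signal, and their differences were −0.12, −0.10, −0.27, 0.16 and 0.02.

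Of 24 tested S phase genes, 3 were called higher, against 6.93% of all genes, and 0 lower (median 0.28; 9 higher and 0 lower at an unadjusted p under 0.05). The 3 were MCM10, which helps start the replicative helicase (0.90, adjusted p = 0.0139), TIPIN and UHRF1, which keeps DNA methylation after replication (0.68, adjusted p = 0.0103). Of 34 G2/M genes, 0 were higher and 2 lower, a smaller share than the 8.38% of all genes (median −0.23; 0 higher and 11 lower at an unadjusted p under 0.05), the spindle proteins TACC3 (−0.61, adjusted p = 0.0226) and PSRC1 (−0.48, adjusted p = 0.0226). The cyclin CCNF had a difference of −0.18 (adjusted p = 0.44), and PIF1, a DNA helicase, had −0.56 (adjusted p = 0.0383), for which the unadjusted p missed 0.005.

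Of 14 tested genes of CDK inhibitors and G1 cyclins, 1 was higher and 3 lower (median −0.20), against 6.93% and 8.38% of all genes. CCND2, a D-type cyclin (chr12:4414040-4414099), was at −0.54, −0.54, −0.24, 0.32 and −0.28 in H1299shRAD9 and at 3.14, 2.99, 1.57, 1.61 and 1.64 in H1299. All parental samples were above all H1299shRAD9 samples, with the first 2 the highest. CCND2 was lower by 2.44 ± 0.33 (adjusted p = 0.000785) and by 1.86 without H1299 samples 1 and 2. The CDK inhibitor CDKN1C was lower by 1.47 (adjusted p = 0.00177), and CDK6, a partner of D-type cyclins, was higher by 0.64 (adjusted p = 0.00694).

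CDKN1A, the CDK inhibitor p21 (chr6:36652178-36652237), was at −1.47, −1.87, −1.98, −1.41 and −1.49 in H1299shRAD9 and at −1.2, −0.73, −0.46, −0.61 and −0.80 in H1299. The lines did not overlap. CDKN1A was lower by 0.88 ± 0.16 (adjusted p = 0.00745), and the signal was well above background on 3 of 5 H1299shRAD9 and 5 of 5 H1299 arrays. The difference of CDKN1A was 0.27 with scan day as a block, where it was not called. Of 11 genes of nucleotide excision repair and 13 of double-strand break repair none was called by limma (medians 0.14 and 0.12), and 3 and 4 had an unadjusted p under 0.05. XPC (−0.32, adjusted p = 0.13) and DDB2 (−0.09, adjusted p = 0.648 without the criterion on variation), which recognize damage by ultraviolet light, were not called.

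ATF4 is the transcription factor by which cells answer a lack of amino acids, and it turns on genes for serine and asparagine synthesis and for stress signaling. Of 39 tested genes of ATF4 and amino acid stress 5 were called lower and 0 higher (13 and 0 at an unadjusted p under 0.05), and the median was −0.50, or 0.03 without H1299 replicates 1 and 2, when 5 were lower and 2 higher. Of all genes, 8.38% were called lower and 6.93% higher. With scan day as a block limma called none of the 39, also at an unadjusted p under 0.05 (median 0.05). The 5 were NUPR1, the stress cytokine GDF15 (−2.79, adjusted p = 0.0227), DDIT4, an inhibitor of mTOR, PCK2, a mitochondrial enzyme that makes phosphoenolpyruvate, and PHGDH, which begins serine synthesis. DDIT4 was at 5.42, 5.67, 5.28, 5.09 and 4.80 in H1299shRAD9 and at 7.4, 9.39, 6.89, 6.07 and 6.08 in H1299. PHGDH was at 4.87, 4.69, 5.04, 4.97 and 4.79 against 7.30, 7.44, 5.46, 5.44 and 5.57. In both the lines did not overlap, and H1299 samples 1 and 2 were the highest of all. The differences were −1.91 for DDIT4, −1.88 for PCK2 and −1.37 for PHGDH (adjusted p = 0.0222, 0.0148 and 0.0267), and −1.1, −1.05 and −0.62 without H1299 samples 1 and 2.

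Other genes of this group had the parental split without a difference between the lines. ASNS, asparagine synthetase, was at 10.85, 10.82, 8.29, 8.39 and 8.48 in H1299 and at 7.91, 7.97, 8.74, 8.84 and 8.45 in H1299shRAD9. CHAC1, which breaks down glutathione, was at 6.39, 7.56, 3.08, 2.93 and 3.42 in H1299 and at 2.77, 2.69, 3.51, 3.39 and 3.22 in H1299shRAD9. H1299 samples 3 to 5 lay among the H1299shRAD9 samples in both genes, and without H1299 samples 1 and 2 the differences were 0.00 and −0.03. DDIT3, a factor of stress-induced cell death, was at 6.80 in H1299 sample 2 and at 2.58 to 3.40 in the other parental samples (difference −1.16, adjusted p = 0.19). ATF4 itself was not called (0.32, adjusted p = 0.34). The count of 5 called lower for ATF4 and amino acid stress was 3 without any 1 of the H1299shRAD9 samples and 2 without H1299 sample 1. It was 0 without H1299shRAD9 replicates 1 and 2 and also without replicates 3 to 5, where fewer samples entered the fit.

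Metabolic genes were counted by pathway, beside 6.93% of all genes called higher and 8.38% lower. Of 17 genes counted here for folate, methyl and NAD metabolism, 3 were lower and 0 higher (median −0.27; 6 lower and 3 higher at an unadjusted p under 0.05), NNMT, FTCD and NAPRT, which makes NAD from nicotinic acid (−0.62, adjusted p = 0.0106). Of 18 genes counted for glutathione and NRF2, 5 were lower and 0 higher (median −0.15; 5 lower and 1 higher at an unadjusted p under 0.05), and 1 was lower with scan day as a block (median 0.07). Of the 5, 4 were among the 6 tested glutathione transferases, which join glutathione to toxic compounds. AKR1C3, which reduces steroids and aldehydes, was at −0.23, −0.56, 0.01, −0.06 and −0.04 in H1299shRAD9 and at 0.90, 1.15, 1.36, 1.21 and 1.09 in H1299. The lines were separate and the difference was −1.32 ± 0.13 (adjusted p = 0.000225), with close relatives of AKR1C3 in the genome that the feature may also measure. The transferases were GSTM1 (−0.65), GSTM3 (−0.63), GSTO2 (−0.62) and GSTP1 (−0.56). The count of 5 was 3 without H1299 sample 1 and also without H1299 sample 2.

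Of 23 tested hypoxia and glycolysis genes, 3 were higher and 3 lower (median 0.31). EPAS1, the hypoxia factor HIF-2α (chr2:46613666-46613725), was at −0.78, −0.18, −1.71, −1.28 and −1.30 in H1299shRAD9 and at 0.98, 1.21, 0.91, 0.81 and 0.63 in H1299. All H1299shRAD9 samples were lower, and the difference was −1.96 ± 0.24 (adjusted p = 0.000466), or −1.39 without samples 3 to 5. Of those samples 1 was well above background, so the size of the fall there is limited by background. HK1, a hexokinase, was lower by 1.22 (adjusted p = 0.0196), and by 0.37 without H1299shRAD9 samples 3 to 5, and the glucose transporter SLC2A3 was lower by 0.75. HKDC1, the peptide hormone ADM (0.76, adjusted p = 0.0126) and VHL, which marks hypoxia factors for degradation (0.68, adjusted p = 0.0321), were higher. HIF1A was not called (0.31, adjusted p = 0.192). Of 16 genes of cyclic nucleotide signaling, PDE2A was lower, and GUCY1A1, a subunit of guanylate cyclase (0.73, adjusted p = 0.0313), and PRKAR2B, a regulatory subunit of protein kinase A (0.46, adjusted p = 0.0301), were higher (median 0.31).

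Of 35 actin cytoskeleton genes tested, 5 were lower and 0 higher (median −0.09), where 8.38% of all genes were lower. Without the criterion on variation 7 of 60 were lower and 2 higher (median 0.03), and with scan day as a block 3 of 35 were lower (median 0.06). Beside LIMCH1 these were the myosin light chain kinase MYLK (−1.69, adjusted p = 0.0171), the adaptor PDLIM1 (−1.42, adjusted p = 8.9e-05), CORO1B, which acts on branched actin (−0.87, adjusted p = 0.00445), and the actin ACTA2 (−0.74, adjusted p = 0.0174). PDLIM1 was at 0.04, −0.05, −0.41, −0.15 and −0.43 in H1299shRAD9 and at 1.18, 1.08, 1.19, 1.39 and 1.22 in H1299, with no overlap, while MYLK was at 2.84, 2.63, 0.71, 0.68 and 0.69 against 3.0 to 3.47, with samples 3 to 5 the lowest. MYLK was lower by 0.46 without samples 3 to 5.

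Genes of the extracellular matrix, its proteases and integrins moved in both directions, with 6 of 41 higher and 7 lower (median 0.12). Of all genes, 6.93% were higher and 8.38% lower. COL4A5, a basement membrane collagen (chrX:107940580-107940639), was at 0.48, 0.38, −1.40, −1.5 and −1.47 in H1299shRAD9 and at 1.78, 1.77, 2.13, 2.04 and 1.70 in H1299. All H1299shRAD9 samples were lower, samples 3 to 5 the most, and the difference was −2.59 ± 0.39 (adjusted p = 0.0017), or −1.45 without samples 3 to 5, of which 1 was well above background. The laminin chain LAMA3 was lower by 1.81 (adjusted p = 0.0121), or by 1.12 without samples 1 and 2, in which it was not well above background, and the matrix glycoprotein FBLN1 by 1.29 (adjusted p = 0.000157). With scan day as a block 6 of the 41 were higher and 2 lower. THBS1, an adhesive glycoprotein that also activates TGF-β, was at 6.01, 6.27, 5.13, 5.32 and 5.23 against 5.12, 3.82, 3.72, 4.17 and 4.03. It was higher by 1.42 ± 0.29 (adjusted p = 0.00821), although H1299 sample 1 nearly reached the lowest H1299shRAD9 sample.

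Of 20 genes counted for epithelial and mesenchymal identity, 0 were higher and 3 were lower (median −0.14; 3 higher and 5 lower at an unadjusted p under 0.05). The tight junction protein CLDN3 (−1.28), the mesenchymal factor TWIST2 (−1.22) and the junction protein JUP (−1.13) were lower (adjusted p = 0.00426, 0.000471 and 0.00232). VIM, vimentin, did not vary enough to be tested (12.10 against 11.65). Of 30 TGF-β and BMP genes, 3 were higher and 1 lower (median −0.03), against 6.93% and 8.38% of all genes. PMEPA1, a TGF-β target that restrains the pathway, was at 3.41, 2.70, 2.40, 2.55 and 2.56 in H1299shRAD9 and at 2.14, 1.00, 1.41, 1.36 and 1.48 in H1299, without overlap, and was higher by 1.25 ± 0.23 (adjusted p = 0.00533). The ubiquitin ligases SMURF2 (0.60, adjusted p = 0.0208) and SMURF1 (0.53, adjusted p = 0.0303) were higher and BMP4 was lower (−0.84, adjusted p = 0.0171).

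Of 19 cytokine and chemokine genes, the neutrophil attractant CXCL1 was higher (1.00, adjusted p = 0.00297), and the receptor IL1R1 (−1.44, adjusted p = 0.00264) and IL32 (−0.87, adjusted p = 0.0126) were lower (median −0.20). Of 23 immediate early genes, 4 were higher, against 6.93% of all genes, and 0 lower (median 0.14). The 4 were the transcription factors NR4A1 (1.1), MYC (0.86), KLF2 (0.84) and IER2 (0.61), with adjusted p = 0.00682, 0.0231, 0.00224 and 0.0174. KLF2 was at 6.44, 6.5, 6.59, 6.47 and 6.61 in H1299shRAD9 and at 5.90, 5.52, 5.57, 5.57 and 5.83 in H1299, so that each line varied little. FOS (−0.53, adjusted p = 0.247) and EGR1 (0.05, adjusted p = 0.954) were not called, and EGR1 was at 6.04 in H1299 sample 2 and at 1.67 to 3.23 in the other parental samples. Of 24 genes of the p38 and JNK stress kinases, MAP2K3, which activates p38 (0.57, adjusted p = 0.0131), and MAP3K5 (0.45, adjusted p = 0.0321) were higher, and the p38 member MAPK12 (−0.97, adjusted p = 0.00671) and JUND (−0.73, adjusted p = 0.0114) were lower (median −0.13). MAPK14, p38α, was not called (−0.49, adjusted p = 0.0516). Of 13 RNA methyltransferases, DIMT1, which modifies ribosomal RNA (0.67, adjusted p = 0.0187), and TRMT1, which modifies transfer RNA (0.50, adjusted p = 0.0302), were higher and 0 lower (median 0.39; 6 higher and 0 lower at an unadjusted p under 0.05). Of 13 genes of the BCL2 family none was called in limma (median 0.12; 1 higher and 2 lower at an unadjusted p under 0.05). The random-variance test of the methods gave the same number of called genes as limma in each of these lists, which for the 4 lists without a call was again 0.

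Of 91 called features of the named genes, 31 differed by over 1.5 times without one of the sets of samples. NAPRT, GSTO2, ACTA2 and SLC2A3 were not among these 91. Beside those given above, the differences were smaller without H1299shRAD9 samples 3 to 5 for interferon-related GBP1 (−0.30), UBE2L6 (−0.31), PARP9 (−0.39), IFITM1 (−0.42) and PARP10 (−0.58). They were also smaller without these samples for GSTP1 (−0.28), BMP4 (−0.37), CHGB (−0.50) and CLDN3 (−0.69) among the falls. Among the rises this held for TRMT1 (0.30), DIMT1 (0.31), IER2 (0.38), VHL (0.42), MYC (0.48), MCM10 (0.55) and ESS2 (1.08). GDF15 was lower by 1.63 without H1299 samples 1 and 2.

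**Figure D4:**
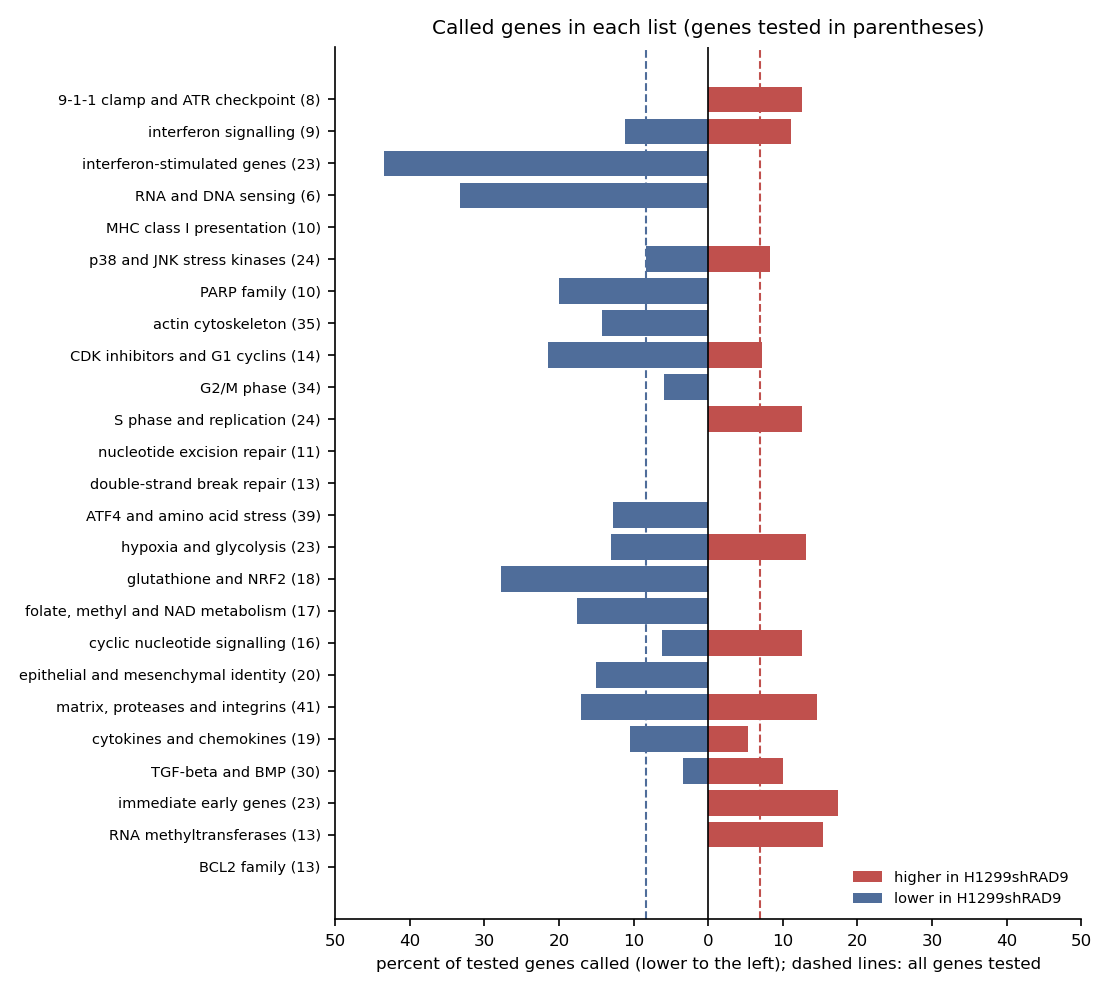
Percent of the tested genes of each list that were called higher or lower in H1299shRAD9 (horizontal; the number tested follows each name), with dashed lines at the shares among all 7768 genes, 6.93% higher and 8.38% lower. Interferon-stimulated genes have 10 of 23 called lower and none higher, and the nucleotide excision repair, double-strand break repair, MHC class I and BCL2 lists have none called.

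The 40 irradiated and bystander arrays are separate samples of the same lines, and the differences were looked for in them again. Except for 1 array each on days 4 and 6, H1299shRAD9 was scanned on days 1 to 3, and H1299 on days 4 to 6. The 2 sets of H1299shRAD9 samples were also present in every group. Differences of scan day or set would therefore recur too, and cannot be told apart here from those of the line. The comparison of the lines gave 826 called features for DBP (6.8%), 901 for BP (7.42%), 610 for DBN (5.02%) and 1016 for BN (8.36%). Of the 1865 features called in controls, those with the same direction were 96.8% for DBP, 94.5% for BP, 95.9% for DBN and 98.5% for BN, where all features tested had 78.4%, 77.5%, 77.9% and 84.7%. The same direction in all 4 groups was seen for 89.5% of the called features and 60.4% of those tested. None was called in the opposite direction in any of the 4 groups by limma, and at an unadjusted p under 0.05 there were 2 in DBP, 0 in BP and 1 each in DBN and BN. In 241 features the call was made in all 5 groups of samples, with 50 higher and 191 lower. Of the 1449 called features without overlap in controls, 189 had none in any irradiated or bystander group either, in the same direction. Of all 12148 features tested, 225 (1.85%) had no overlap, in 1 direction, in the 4 irradiated and bystander groups.

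The differences of the first genes recurred at about the same size. FTCD differed by −3.52, −3.11, −3.23 and −2.99 in DBP, BP, DBN and BN, LIMCH1 by −3.45, −3.36, −2.85 and −3.32, and PDE2A by −3.93, −3.81, −3.47 and −3.81. PRDM1 differed by 1.78, 1.96, 1.90 and 2.10. IFI44 (−1.13, −1.01, −0.99 and −0.88) and IFIT1 (−0.91, −0.81, −0.71 and −0.60) were lower in every group.

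Other differences were smaller outside the controls, although the change between groups was not tested. HKDC1 differed by 1.68, 0.51, 0.53 and 0.94 in DBP, BP, DBN and BN, NRG4 by 0.66, 0.76, 0.91 and 0.77, and CD86 by 0.65, 1.57, 0.52 and 0.47. CDKN1A differed by 0.20 in DBP and by −0.77 to −0.92 in BP, DBN and BN. In DBP, RAD9A differed by −0.35 (exact permutation test, p = 0.0635), in BP by −0.13 (p = 0.302), in DBN by 0.06 (p = 0.857) and for BN by −0.11 (p = 0.476, all by that exact test). Whether the RAD9A difference itself changed between groups was not tested.

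**Figure D5:**
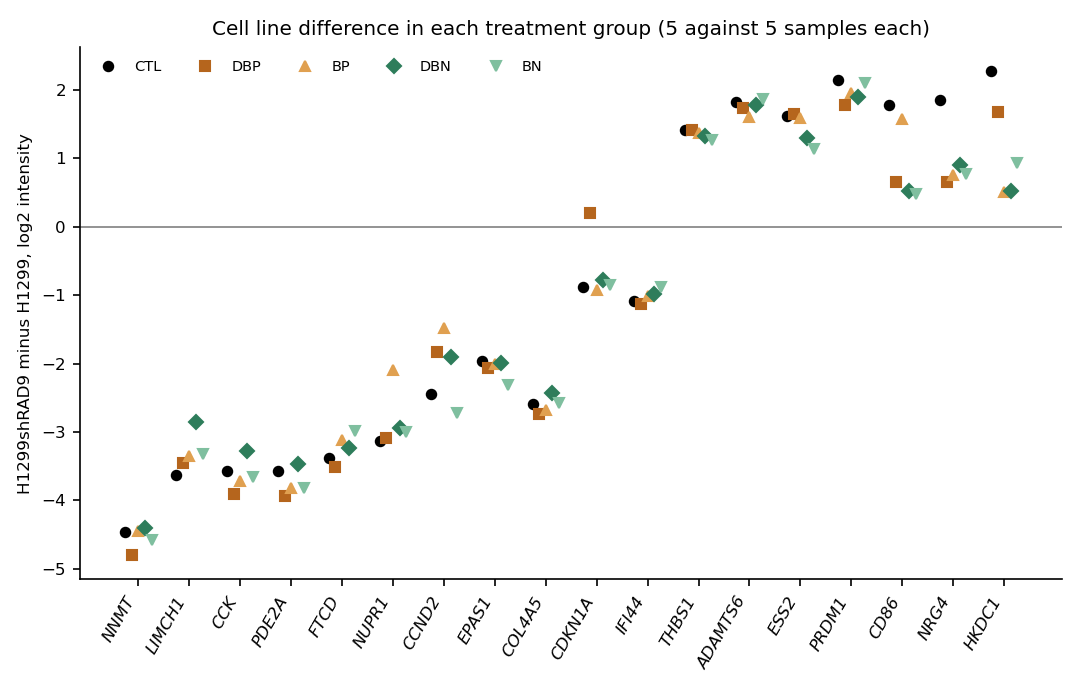
Difference between H1299shRAD9 and H1299 (log2, vertical) of 18 genes in the controls and in the DBP, BP, DBN and BN groups, 5 samples of each line in each group. FTCD, LIMCH1, PDE2A and NNMT differ by nearly the same amount in every group, and HKDC1, NRG4 and CD86 by less in most other groups than in controls.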

How the data were processed

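Total RNA was labeled with Cy3 and hybridized to Agilent arrays of 44495 spots, 43118 of them not controls. The deposited values are processed intensities of Agilent Feature Extraction 11.5.1.1 (protocol GE1_1105_Oct12), which per the file headers had its fitted background subtracted, and feature positions are on hg19. The authors analyzed the data in BRB-ArrayTools, and also deposited log2 values of 9502 features, used as an alternative. Authors' tables of comparisons hold fold changes and p-values and were not used.

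Here, intensities of spots were converted to log2, averaged over the spots of one feature and set to the median of each array. Features were kept where under 25% of the 50 arrays were not well above background (20078 features) and where at least 20% of arrays differed by 1.3-fold from the median (12148 features), after the criteria of the study. The lines were compared with limma 3.58.1 (lmFit and eBayes, two-sided) in R 4.3.3, without pairing, with 5 samples each, called independent samples in the methods of the study. The number of arrays limits the precision. Only 2 transfectants were used and the H1299shRAD9 samples fell into 2 sets. The SE and p of limma therefore measure the spread among samples, and not that among clones. Calls needed p under 0.005 and a Benjamini-Hochberg false discovery rate under 10%. Genes with several features were given by the brightest. Of the features, 25955 were named by accession, 2084 by symbol, 464 by an older symbol and 5624 not at all. Exact permutation tests were computed over all divisions of the samples, in Python 3.11.15 with numpy 2.4.6. Other software was pandas 2.3.3 and matplotlib 3.10.9. Promoter sequences were from RefSeq (GRCh38.p14) and matched by symbol. In simulated data (12147 features, 200 changed), limma recovered 59% of the changes set at 2-fold and 98% of those set at 4-fold, and called 13 unchanged features. The part of slide, scan day and the sets of samples in these counts was not tested. Recovery among the measured features, of which 1865 of 12148 were called, was not tested either.

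Genes were named if the study names them for this comparison, if they were among the 10 largest rises or falls without overlap, if they were among the 4 largest called members of a list or define it, if detected in one line only with the 5 largest bounds, or if cell type markers. Lists with few called members are given in full, and other names are said to be chosen after their values were seen or are members described with their list. The comparison and the gene lists were chosen with earlier results of these data known. Some genes of these lists and 2 of the lists are not reported here and were left out of the counts by list.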

Additional observations from a re-analysis of the deposited data

Results flagged for a closer look

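In each line the levels of the named genes were searched for a sample far from the other 4, where the gap to the nearest sample, divided by the range of the 5, was above 0.71. Of 259 groups of 5 samples, 13 passed, and chance alone gives about 1 in 20. In H1299 this ratio was 0.742 for STAT6, 0.719 for PRDM1, 0.804 for ADAMTS6, 0.769 for IFNAR2, 0.748 for ATR, 0.804 for DDIT3, 0.76 for PRKAR2B, 0.796 for JUND, 0.786 for DDB2 and 0.804 for KRT8. In H1299shRAD9 it was 0.755 for CD86, 0.739 for IL1R1 and 0.817 for MAPK12. The sample apart was H1299 2 for PRDM1 (−0.99), ADAMTS6 (−1.92), ATR (4.64), DDIT3 (6.80), PRKAR2B (2.68) and JUND (2.58). It was H1299 3 for STAT6 (2.41), and H1299 1 for IFNAR2 (6.12), KRT8 (7.25) and DDB2 (6.39). In H1299shRAD9 it was sample 3 for CD86 (3.12) and MAPK12 (0.40) and sample 1 for IL1R1 (−2.46).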

How the results depend on the processing

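Alternatives changed 1 choice at a time, except that the processed values of the authors also brought another set of features (9453 tested) and the block of scan day was fitted on all 50 arrays. That block and the 3 alternatives that leave out several samples were chosen after seeing the data. The counts of named genes here leave out NAPRT, GSTO2, ACTA2 and SLC2A3. Of 88 called genes named in the text 84 kept their direction under every alternative, and 88 kept their call with the random-variance test of the methods, 86 with 75th percentile scaling, 76 with the processed values of the authors, 67 with slide as a random block, 63 with all 50 arrays in one fit, 42 with the 5′ to 3′ index as a covariate, 29 with scan day as a block and 43 without H1299shRAD9 replicates 3, 4 and 5, where fewer samples entered the fit. Differentially expressed features numbered 1270 to 2149 when 1 sample was left out, 1027 with slide as a random block, 849 with the index as a covariate, 377 with scan day as a block and 1053 without H1299shRAD9 replicates 3, 4 and 5. The highest count, 2578, came without the criterion on variation. The percent of them higher in H1299shRAD9 was 42.2 to 54.9 with 1 sample left out, 51.3 with normexp background correction, 45.3 with the weaker mark of signal above background, 42.8 when features above background on 4 of 5 arrays of either line were kept, 52.2 without the criterion on variation, 43.3 with all 50 arrays, 36.6 with the values of the authors, 37.8 with slide as a block, 40.2 with the index, 54.6 with scan day, 31.5 without H1299shRAD9 replicates 3, 4 and 5 and 56.8 without H1299 replicates 1 and 2. The cause of these shifts was not tested.

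RAD9A was −0.42 to −0.29 with 1 sample left out and −0.18 with scan day as a block (adjusted p = 0.789 by limma). Its adjusted p was 0.231 with all 50 arrays in one fit and 0.205 with the index as a covariate. Of the list members tested, 84 were called, 64 to 86 with 1 sample left out and 55 without H1299shRAD9 replicates 3, 4 and 5. Interferon-stimulated genes called lower (10) were 4 to 10 with 1 sample left out, 6 with all 50 arrays, 5 with slide, 4 with the index, 3 without H1299shRAD9 replicates 3, 4 and 5 and 6 without H1299 replicates 1 and 2. Actin cytoskeleton genes called lower (5) were 5 with any 1 sample left out, 3 with the index and 2 without H1299shRAD9 replicates 3, 4 and 5. ATF4 and amino acid stress genes called lower (5) were 2 to 6 with 1 sample left out, 2 with all 50 arrays, 17 with the index and 0 without either set of H1299shRAD9 replicates. Glutathione and NRF2 genes called lower (5) were 3 to 4 with 1 sample left out, 1 with the index, 3 with all 50 arrays and 3 without either set or without H1299 replicates 1 and 2. Matrix genes called higher (6) were 5 to 9 with 1 sample left out, 3 with quantile normalization and 2 without H1299shRAD9 replicates 3, 4 and 5, and those called lower (7) were 6 to 8 with 1 sample left out. List counts of under 5 differed by at most 1 gene in 1062 of 1144 values. With scan day as a block 34 list members were called, with 0 interferon-stimulated, 3 actin, 0 ATF4, 1 glutathione and 2 matrix genes lower, and called genes that reversed were HKDC1 (−0.74), DOK3 (−0.11), CDKN1A (0.27) and SMURF1 (−0.0080).

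Features detected in H1299 only were 151 to 355 with 1 sample left out and 726 when 4 of 5 arrays against at most 1 of 5 were asked for, and in H1299shRAD9 only 0 to 2 and 12. With 75th percentile scaling, 91.6% of the called features had the same direction in BP and 93.3% in DBN. The mean difference reversed in 3 genes that were not called: without H1299shRAD9 replicates 1 and 2 it was 1.79 for STAT6, −1.39 for ADCY7 and 0.81 for RXRA, and with the values of the authors 1.70 for STAT6 and 0.72 for RXRA. Over the features tested, 75th percentile scaling, quantile normalization and normexp background correction moved the median difference by −0.0037, −0.028 and −0.0073. The values of the authors, which also hold other features, moved it by −0.09.

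Samples of the same replicate number were not paired: their deviations correlated at −0.139 to 0.280, and 1 of 5 H1299shRAD9 samples correlated best with its own number. With the replicate block, 10.7% of the features tested were differentially expressed, 43.1% of them higher, with 6 interferon-stimulated and 3 glutathione genes called lower. Depth is not measured on arrays. Features near background, such as GBP1, LIMCH1 and IL1R1 in H1299shRAD9, have levels limited by it.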
